A study of Mus musculus with 3 samples.

Results

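Innate sensing and NF-kB signalling genes were examined in RNA from sorted cells of the mouse leptomeninges, the thin inner membranes of the brain. The set held 42 genes, chosen by symbol and by known role and not by measured values, out of 46983 gene rows in the count table. It comprised 12 Toll-like receptors, 6 cytosolic sensors and inflammasome genes, 9 adaptors and proximal kinases, 3 genes of the IKK complex, 5 NF-kB subunits, and 7 IkB proteins and feedback inhibitors. The material was a pia-enriched fraction from vehicle-treated mice, measured by bulk RNA sequencing in 3 libraries of 1 group, so no treatment could be compared. The vehicle, genotype, strain, sex, age and number of mice per library, and the gate of the sort, were not given in the sources used here. Nothing stated that the libraries came from separate mice, so the spread between them may be technical.

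Toll-like receptors sit on the cell surface or in endosomes and bind microbial lipids, proteins or nucleic acids, while NOD-like and RIG-I-like proteins do so in the cytosol. Adaptors such as Myd88 pass the signal to IRAK kinases, Traf6 and the kinase Map3k7, which activate the IKK complex. IKK marks the IkB proteins for destruction and so frees NF-kB dimers to enter the nucleus, where they induce target genes that include their own inhibitors. In meninges, both resident macrophages and stromal cells are known to carry such receptors.

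The libraries held 21002860, 28704952 and 25338616 gene counts. Levels are counts per 1000000 (CPM) on library sizes scaled by edgeR's TMM method, and levels of different genes are compared only as CPM per kilobase of exon. A count of 0 allowed up to 3 counts, or 0.152, 0.101 and 0.116 CPM in libraries 1, 2 and 3, which covers counting error only. The 6 fibroblast markers summed to 23467, 29100.2 and 25292 CPM. Library 1 stood apart in immune cells and in base composition. The 10 macrophage and microglia markers, each with a count in every library, summed to 13.1 CPM in library 1, 267 in library 2 and 759.8 in library 3. Of the 6 lymphocyte markers, with a sum of 2.78, 53.7 and 62.2 CPM, the B cell gene Ms4a1 had no count in library 1 and the T cell genes Cd3d and Cd3e had none in library 2. The 4 neutrophil markers summed to 2.22, 2.65 and 4.51 CPM, with S100a8 and Ngp at no count in library 1 and Camp, the only one past the filter on low counts, highest there (43, 14 and 17 counts). The 5 endothelial markers summed to 63.0, 57.5 and 56.4 CPM. In bulk RNA, fewer cells of a type and less RNA per cell cannot be told apart.

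At least 1 count was found for 40 of the 42 genes in every library, and 35 passed the filter on low counts (a count of about 10 in all 3 libraries). Among all gene rows with a count, 57.4% passed it. The median level of the 35 genes was 20.9 CPM, against 18.0 CPM for all 14409 genes past the filter, and 3.86 against 3.70 CPM per kilobase of exon. The 7 genes below the filter were Tlr1, Tlr9, Tlr11, Tlr13, Nod2, Nlrp3 and Casp1, all of them sensors or inflammasome genes. Levels per length spanned a wide range, from Nfkbia at 228 ± 74.7 CPM per kilobase (SD, n = 3) to Nod2 at 0.0145 ± 0.0172. Of the 41 pairs of neighbours in this order, the ranges of 4 did not overlap: Nfkbia lay above Myd88, Myd88 above Rela, Rela above Mavs, and Tnip1 above Nfkbib. All other neighbours overlapped, so their order was not resolved.

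**Figure D1:**
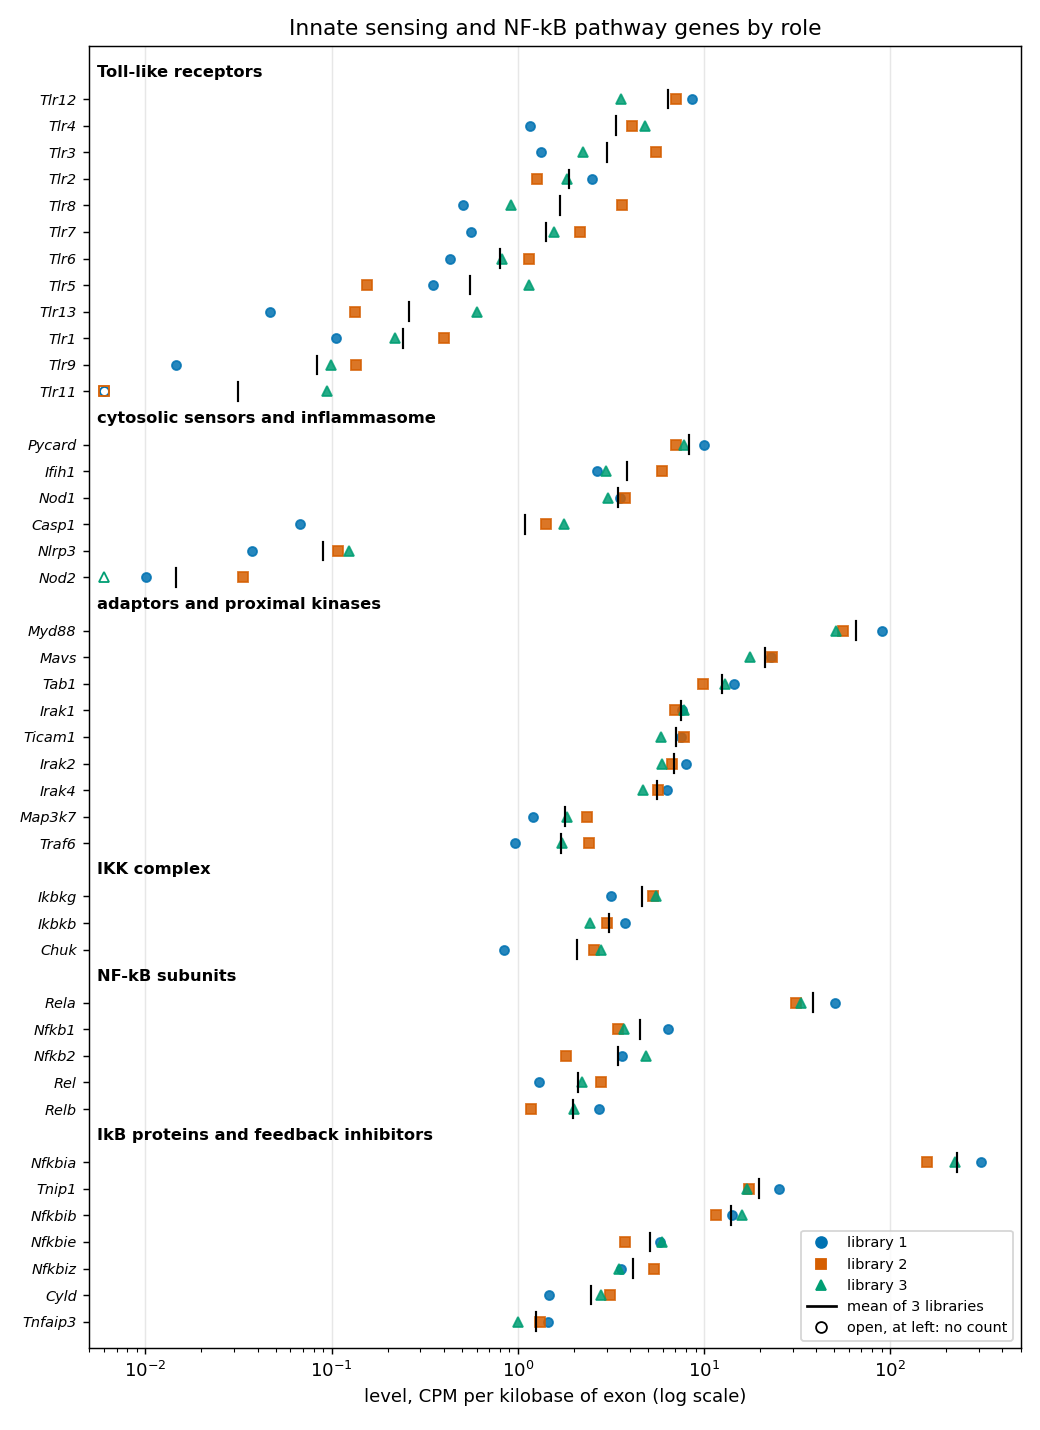
Level of each of the 42 genes in CPM per kilobase of exon on a log axis, grouped by role, with 1 point per library and a bar at the mean of 3 libraries; open points at the left edge stand for no count. Nfkbia, Myd88 and Rela lie highest, and Nod2 and Tlr11 have libraries with no count.

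Among the 12 Toll-like receptors, 8 passed the filter. Per kilobase of exon, Tlr12 led in libraries 1 and 2 and Tlr4 in library 3. In plain CPM, Tlr3 led in library 2 (28.7 against 22.3 for Tlr12). Tlr12 (ENSMUSG00000062545.4, chromosome 4, 128615443 to 128618619, GRCm38), an endosomal receptor for parasite profilin, had the highest mean, at 27.2, 22.3 and 11.4 CPM in libraries 1, 2 and 3 (6.39 ± 2.56 CPM per kilobase, SD, n = 3). It was highest in library 1, where macrophage markers were lowest, and a relation between the 2 was not tested. Tlr4, the lipopolysaccharide receptor, was at 6.47, 22.9 and 26.6 CPM (3.36 ± 1.93 CPM per kilobase). Its levels in libraries 2 and 3 both lay above library 1, by 3.54-fold and 4.12-fold. Tlr3, which binds double-stranded RNA, was at 6.97, 28.7 and 11.6 CPM (3.03 ± 2.20 CPM per kilobase), highest in library 2. Tlr2, which binds lipopeptides, was at 7.58, 3.83 and 5.55 CPM, highest in library 1. The ranges per length of Tlr12, Tlr4 and Tlr3 overlapped, so the first place of Tlr12 was not resolved.

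Of the other receptors, Tlr6, which pairs with Tlr2, was at 1.62, 4.27 and 3.05 CPM, and Tlr1, its other partner, had 7, 40 and 19 counts. The receptors of single-stranded RNA, Tlr7 and Tlr8, were both highest in library 2. Tlr8 (ENSMUSG00000040522.5, chromosome X, 167242696 to 167264329) was at 1.82, 13.1 and 3.28 CPM, with library 2 higher than library 3 by 3.99-fold and than library 1 by 7.19-fold. Tlr7 was at 2.27, 8.77 and 6.36 CPM, so that library 1 was lowest for both genes. Tlr5, the flagellin receptor, was at 1.67, 0.739 and 5.51 CPM, and library 3 exceeded library 2 by 7.46-fold. Tlr13, a sensor of bacterial ribosomal RNA that is known from myeloid cells, had 4, 17 and 67 counts, in the same order of libraries as the macrophage markers; their part in it was not tested. Tlr9, the receptor for unmethylated CpG DNA, had 1, 14 and 9 counts. Tlr11, the other profilin receptor, had no count in libraries 1 and 2 and 8 counts in library 3 (exact 95% Poisson interval 3.45 to 15.8, counting error only), so its absence from libraries 1 and 2 could not be shown at this depth.

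The composition of the receptor transcripts differed accordingly between libraries. Of the summed receptor level per kilobase, Tlr12 made up 54.9%, 27.3% and 20.0% in libraries 1, 2 and 3 (34.1% ± 18.4, SD, n = 3). Tlr4 made up 7.46%, 16.0% and 26.8%, and in library 3 it exceeded Tlr12. Tlr3 made up 8.58%, 21.5% and 12.5%, and Tlr2 16.1%, 4.95% and 10.3%. The remaining 8 receptors together filled the rest in each library, with Tlr8 at 14.2% in library 2 as their highest single share. The summed receptor level was 15.6, 25.7 and 17.9 CPM per kilobase.

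**Figure D2:**
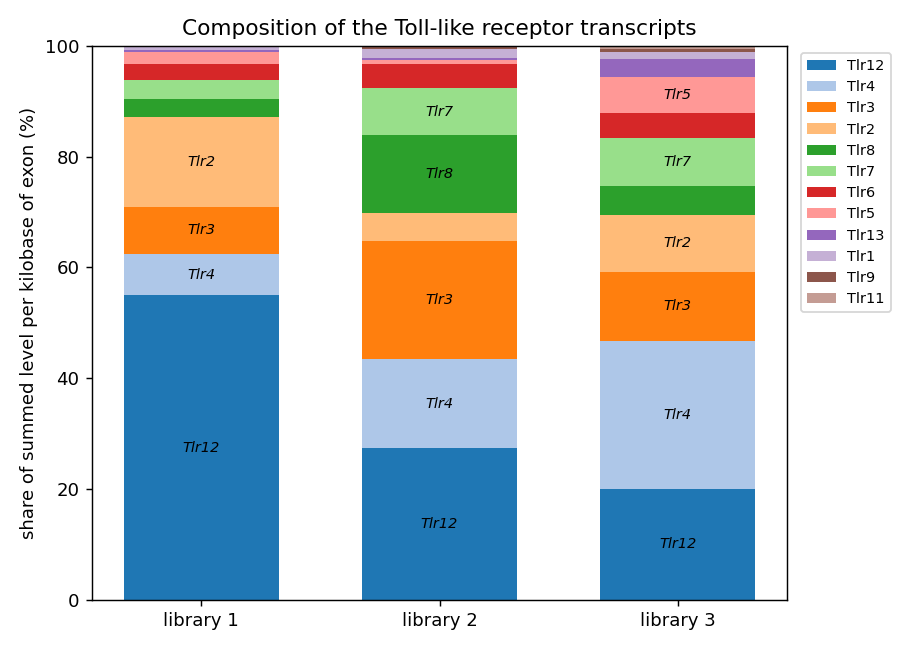
Share of each receptor gene in the summed level of the 12 Toll-like receptors, in percent of CPM per kilobase of exon, 1 bar per library. Tlr12 fills 54.9% of the bar of library 1 and 20.0% of that of library 3, where Tlr4 takes 26.8%.

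Of the cytosolic sensors and inflammasome genes, Pycard, Nod1 and Ifih1 passed the filter, and Nod2 and Nlrp3 were barely detected. Casp1 was barely detected in library 1 only. Pycard (ASC), the adaptor of inflammasomes, was at 37.9, 26.7 and 29.7 CPM (8.28 ± 1.52 CPM per kilobase, SD, n = 3), with library 1 highest. Nod1, a sensor of bacterial peptidoglycan, was even across libraries at 17.9, 19.0 and 15.4 CPM. Ifih1 (MDA5), a helicase that senses long double-stranded RNA, was at 21.7, 48.5 and 24.3 CPM, with library 2 above the others as for Tlr3. By contrast, Nod2, a muramyl dipeptide sensor, had 1, 5 and 0 counts, and Nlrp3, the inflammasome receptor, had 3, 13 and 13 counts. Casp1, the protease that inflammasomes activate, had 2, 63 and 69 counts, where the exact Poisson intervals of 0.242 to 7.22 in library 1 and 48.4 to 80.6 in library 2 did not meet. Macrophage and microglia markers were lower in library 1 too; their part in the low Casp1 count was not tested.

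Adaptors and proximal kinases all passed the filter. Myd88 (ENSMUSG00000032508.8, chromosome 9, 119335934 to 119341411), the adaptor of most Toll-like receptors, was the second most abundant gene of the set at 233, 143 and 131 CPM (65.6 ± 21.7 CPM per kilobase, SD, n = 3), above 96.9% of genes with a count per length. Library 1 was above both others, by 1.63-fold and 1.78-fold. Exons of Acaa1a on the opposite strand overlap 11.3% of Myd88's exon bases, so reads there could not be assigned with certainty. Mavs, the mitochondrial adaptor of Ifih1, was at 76.4, 77.6 and 59.0 CPM (21.2 ± 3.12 CPM per kilobase). Ticam1 (TRIF), the adaptor of Tlr3, was at 22.5, 23.3 and 17.6 CPM. Those libraries differed little for Mavs and Ticam1, with library 3 lowest for both.

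The kinases Irak1, Irak2 and Irak4 were close to each other at 7.48, 6.87 and 5.57 CPM per kilobase. Irak1 had the smallest range of the tested members, at 36.1, 32.9 and 36.8 CPM. Tab1, an activator of Map3k7, was at 48.7, 33.2 and 43.3 CPM. The ubiquitin ligase Traf6 was at 7.63, 19.0 and 13.6 CPM and the kinase Map3k7 at 7.78, 15.2 and 11.7 CPM. Both were the least abundant of this group per length (1.70 and 1.80 CPM per kilobase), and both were lowest in library 1 and highest in library 2.

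Within the IKK complex, the kinases Ikbkb and Chuk and the regulatory subunit Ikbkg differed in their library pattern. Ikbkb was at 71.6, 57.4 and 46.5 CPM, highest in library 1. Chuk was at 4.29, 13.0 and 14.2 CPM and Ikbkg at 25.7, 42.9 and 44.6 CPM, both lowest in library 1. Per kilobase of exon the means were 3.07 for Ikbkb, 2.07 for Chuk and 4.66 for Ikbkg. The place of Ikbkb depended on the length used, since its union of exons spans 19078 bases and its longest transcript 4845: per kilobase of the latter it was 12.1. Only Ikbkb, Nfkb1 (4.53 against 13.2) and Cyld (2.46 against 3.86) moved by more than 1.5-fold between both lengths.

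Rela (p65; ENSMUSG00000024927.7, chromosome 19, 5637483 to 5648130), the subunit with the main activation domain of classical NF-kB, led the subunits at 156, 95.5 and 101.2 CPM (38.2 ± 10.8 CPM per kilobase, SD, n = 3). It made up 78.3%, 77.1% and 72.01% of the summed subunit level per kilobase, and 66.5% ± 2.41 as a mean when longest transcripts were used. Nfkb1, the precursor of p50, was at 77.3, 41.8 and 44.8 CPM, with library 1 highest as for Rela. Nfkb2 and Relb, the pair of the non-classical pathway, were at 16.5, 8.27 and 22.4 CPM and at 10.6, 4.57 and 7.79 CPM, both lowest in library 2. Rel, a subunit best known from lymphocytes, was at 9.70, 20.9 and 16.4 CPM and was lowest in library 1. The B cell markers Cd79a, Cd79b and Ms4a1 were also lowest there, whereas Cd3d and Cd3e were lowest in library 2; their part was not tested.

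Inhibitors were led by Nfkbia (IkB alpha; ENSMUSG00000021025.7, chromosome 12, 55489410 to 55492647), which NF-kB itself induces. It was at 492, 252 and 359 CPM in libraries 1, 2 and 3, above 99.2% of genes with a count per length. Library 1 was highest, by 1.95-fold over library 2 and 1.37-fold over library 3. Nfkbib and Nfkbie, the beta and epsilon forms, were at 30.6, 25.3 and 34.8 CPM and at 17.6, 11.5 and 18.0 CPM. Nfkbia made up 93.9%, 91.0% and 91.0% of the summed level of these 3 IkB genes. Tnip1, a ubiquitin-binding partner of A20, was at 89.2, 61.3 and 60.0 CPM (19.8 ± 4.65 CPM per kilobase). Tnfaip3 (A20), a ubiquitin-editing brake on the pathway, was lower and even at 10.5, 9.48 and 7.21 CPM. Nfkbiz, a nuclear member of the family, was at 17.9, 27.2 and 17.6 CPM, highest in library 2, and the deubiquitinase Cyld at 18.6, 39.4 and 34.97 CPM, lowest in library 1.

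Levels of IkB and subunit genes were set against each other as sums. Nfkbia, Nfkbib and Nfkbie together were at 325, 172 and 245 CPM per kilobase, and the 5 subunits at 64.7, 40.3 and 45.7. Both sums were highest in library 1 and lowest in library 2. Their ratio was 5.03, 4.26 and 5.35 (4.88 ± 0.56, SD, n = 3). With longest transcripts the mean ratio was 3.87, in plain CPM 1.94, and without Nfkbia 0.390. RNA levels do not measure the proteins.

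**Figure D3:**
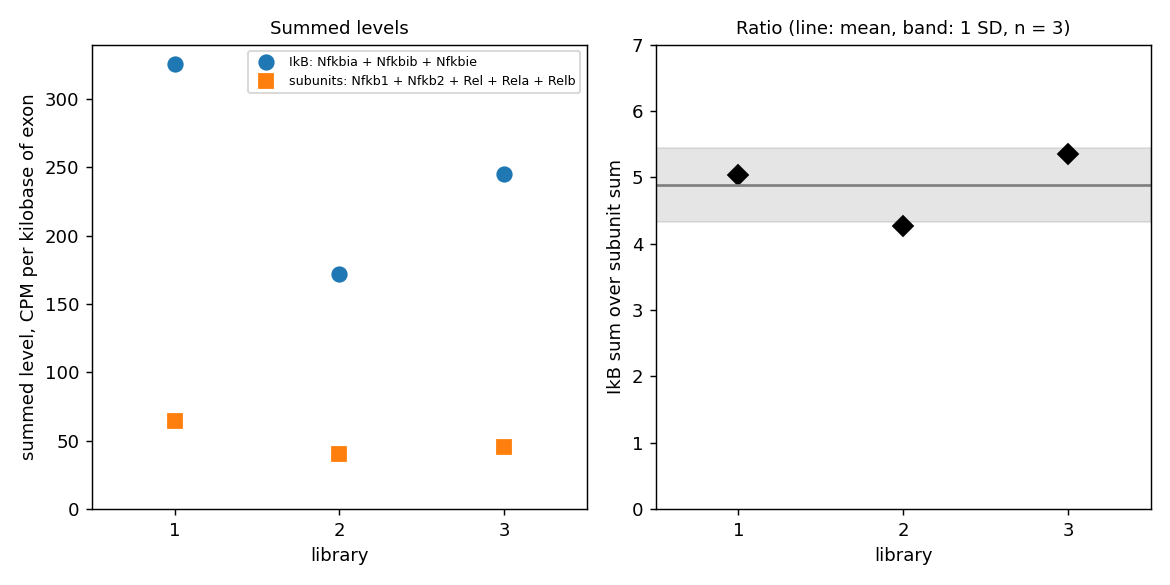
Left, summed level of the 3 IkB genes and of the 5 NF-kB subunit genes by library in CPM per kilobase of exon; right, their ratio by library, with the mean as a line and 1 SD as a band (n = 3). Both sums are highest in library 1, and the ratio stays between 4.26 and 5.35.

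Since NF-kB is known to induce several of its inhibitors, the promoters of the set were searched for the kappaB consensus, its 10-letter binding motif. Both strands were searched in the 250 bases before each RefSeq start of a gene (GRCm38.p6), and a gene can have several starts. Of 27025 genes with a promoter entry, 8.23% held it in at least 1 entry. Promoters were found for 35 of the 42 genes, with none used for Tlr4, Tlr7, Tab1, Ikbkb, Nfkb1, Relb and Nfkbiz. Of those 35, 12 (34.3%) held the motif, 5 of them among the 6 inhibitors searched. The others were Tlr2, Tlr3, Nlrp3, Irak1, Map3k7, Nfkb2 and Rel. Every matching window of these genes and of the inhibitor Tnfaip3 overlapped an annotated exon, and those of Tlr3 and Nfkb2 lay inside the gene. The 4 inhibitor promoters without an annotated exon inside the window are printed because they belong to genes that differ widely in level, with the matches in capitals and each window written 5′ to 3′ on the gene's strand. They lie at chr12:55492648-55492897, minus strand, for Nfkbia, at chr11:54962941-54963190, minus strand, for Tnip1, at chr17:45555450-45555699, plus strand, for Nfkbie, and at chr8:88696778-88697027, plus strand, for Cyld.
Nfkbia: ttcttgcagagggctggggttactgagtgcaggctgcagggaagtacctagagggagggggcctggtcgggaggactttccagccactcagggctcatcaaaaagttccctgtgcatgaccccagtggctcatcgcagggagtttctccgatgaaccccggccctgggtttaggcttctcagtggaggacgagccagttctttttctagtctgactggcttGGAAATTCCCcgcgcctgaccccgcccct
Tnip1: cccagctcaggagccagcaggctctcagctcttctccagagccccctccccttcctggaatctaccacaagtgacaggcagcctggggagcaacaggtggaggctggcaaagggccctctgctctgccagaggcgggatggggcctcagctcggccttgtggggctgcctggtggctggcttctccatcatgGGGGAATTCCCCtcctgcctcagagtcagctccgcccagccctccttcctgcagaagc
Nfkbie: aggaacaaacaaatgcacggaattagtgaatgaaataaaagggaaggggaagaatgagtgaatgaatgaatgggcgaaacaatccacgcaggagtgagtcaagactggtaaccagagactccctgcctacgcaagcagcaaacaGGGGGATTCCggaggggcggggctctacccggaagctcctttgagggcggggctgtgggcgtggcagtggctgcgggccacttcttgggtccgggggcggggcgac
Cyld: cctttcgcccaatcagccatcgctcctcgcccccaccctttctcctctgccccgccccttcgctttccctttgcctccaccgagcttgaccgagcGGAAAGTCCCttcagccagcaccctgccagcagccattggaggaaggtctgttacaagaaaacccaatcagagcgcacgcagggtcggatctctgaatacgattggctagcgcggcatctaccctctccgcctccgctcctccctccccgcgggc
In the Nfkbia window the match ended 19 bases before the start, in that of Nfkbie 96 bases and in that of Cyld 145 bases before it. The Tnip1 window held 3 overlapping matches within 1 run of capitals. The second ended 47 bases before the start. Motif matches describe the letters and were not measured as binding. They did not sort the genes by level: Nfkbia stood at 228 CPM per kilobase and Cyld at 2.46, while Nfkbib, which had no match, stood at 13.9.

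Differences between libraries were then tested for all 14409 genes with edgeR's goodness-of-fit test. It called 63 genes, or 0.437%, at an adjusted p below the threshold of 0.05, and 0 of the 35 tested members. At an unadjusted p under 0.05 there were 4 members (11.4%), Tlr3, Tlr4, Tlr5 and Tlr8, against 7.04% of all genes. The lowest adjusted p was that of Tlr8 (edgeR adjusted p = 0.266), then those of Tlr5 (0.384), Tlr4 (0.532) and Tlr3 (0.537). Tlr8 had the largest range of the set, 2.32 in log2(CPM + 1), and the smallest range among the 63 called genes was 2.21. All tested members except Tlr8 thus had a smaller range than every called gene. The median range of the tested members was 0.83 and that of all tested genes 0.67. A range over 1 was found for 14 members (40.0%) and for 26.1% of all tested genes. Among the marker lists the same test called 7 of 7 tested macrophage and microglia genes (Csf1r, C1qa, C1qb, C1qc, Cx3cr1, Fcer1g and Lyz2) and 2 of 2 tested lymphocyte genes (Cd79a and Cd79b), each lowest in library 1.

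Library 1 was lowest for 12 of the 35 members (34.3%), against 40.4% of all tested genes, and highest for 14 (40.0%), against 39.6%. The lowest 12 were Tlr3, Tlr4, Tlr6, Tlr7, Tlr8, Ifih1, Traf6, Map3k7, Ikbkg, Chuk, Rel and Cyld. The highest 14 were Tlr2, Tlr12, Pycard, Myd88, Irak2, Irak4, Tab1, Ikbkb, Nfkb1, Rela, Relb, Nfkbia, Tnfaip3 and Tnip1. Over the 35 members the median difference of library 1 from the mean of libraries 2 and 3 was 0.14 in log2(CPM + 1), and it was -0.0048 over all tested genes. The sign followed base composition. Across the 35 members the difference had a Spearman correlation of 0.662 with GC content, and 0.608 across 14375 genes, as a description over genes that share the same libraries. All 10 members with a GC content of at least 55% were higher in library 1 than in the mean of the others, with a median of 0.31, and 9 of 10 below 45% were lower, with a median of -1.12. Nfkb1, at 44.9% GC, was the exception, with a difference of 0.82.

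Removal of the trends with GC content and exon length across all tested genes reduced most of these differences. That of Tlr4 went from -1.78 to -0.71, that of Tlr8 from -1.46 to -0.52 and that of Chuk from -1.46 to -0.62. Tlr3 went from -1.28 to -0.29. On the high side Nfkbia went from 0.71 to 0.35, Rela from 0.66 to 0.29 and Tlr12 from 0.73 to 0.40, whereas Nfkb1 went from 0.82 to 1.37. The difference shrank in 25 of 35 members and took the opposite sign in 8, among them Ifih1, Mavs and Nfkb2. The corrected median over members was -0.10. A correlation with GC content remained among the members after the removal (Spearman 0.388).

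**Figure D4:**
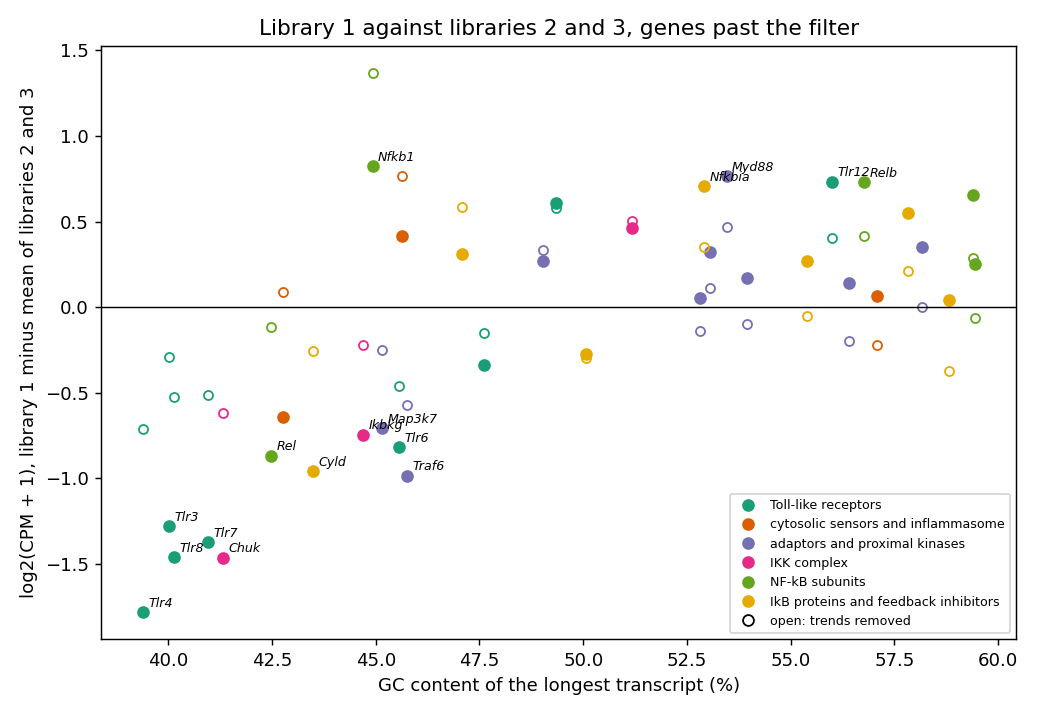
Difference of library 1 from the mean of libraries 2 and 3 in log2(CPM + 1) against GC content in percent for the 35 genes past the filter, coloured by role; filled points are the measured differences and open points those after the trends with GC content and exon length were removed. Filled points below 45% GC lie below zero except Nfkb1, and those of at least 55% lie above it.

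Other genes of the pathway were taken from 3 lists. Of 39 such genes, 35 were tested and 0 were called by edgeR's goodness-of-fit test, and 1 of them, Ly96, had an unadjusted p under 0.05. Receptor partners were led by the chaperone Hsp90b1 (239 CPM per kilobase) and by Lbp, the lipopolysaccharide-binding protein, at 897, 712 and 424 CPM (140 CPM per kilobase). Ly86 (3, 175 and 321 counts) and Cd180 (0, 12 and 13 counts), partners on B cells and myeloid cells, were lowest. Ly96 (MD-2), which Tlr4 needs to bind lipopolysaccharide, was named after its values were seen and was at 2.53, 15.6 and 14.1 CPM, low in library 1 like Tlr4. Sensors were led by Tmem173 (STING, 12.2 CPM per kilobase) and Ddx58 (RIG-I) at 58.3, 89.9 and 61.5 CPM, highest in library 2 like Ifih1. Mb21d1 (cGAS, 0.264 CPM per kilobase) and the inflammasome receptor Nlrc4 (2, 11 and 50 counts) were lowest. Signalling genes were led by Rbck1, of the linear ubiquitin ligase, and the transcription factor Irf3 (27.0 and 25.5 CPM per kilobase), and Sigirr and Ticam2 were lowest (0.445 and 0.0388).

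Textbook NF-kB target genes were abundant in part. Of 14, 12 were tested and 0 were called by the same test, and 1, Ier3, had an unadjusted p under 0.05. Ier3, an early response gene, was at 2014, 643 and 692 CPM, and Icam1, an adhesion molecule, at 981, 401 and 416 CPM. Both were highest in library 1, as were Nfkbia and Rela. Summed over the 14 targets, library 1 exceeded library 2 by 2.09-fold and library 3 by 2.31-fold, a sum led by Ier3 and Icam1. Of the 14 targets, 5 were highest in library 1 and 7 were lowest there. Among all 25083 genes with a count, 8960 were highest in library 1 and 11348 (45.2%) were lowest there. The median difference of library 1 from the mean of the others was -0.17 in log2(CPM + 1) over all 14. It was 0.60 over the 12 tested once the GC content and exon length trends were removed. The untested Tnf and Il1b (-1.62 and -0.68) are only in the first median. The medians thus cover different genes, and their signs do not show what the removal changed. Tnf (0, 44 and 73 counts) and Il1b (1, 11 and 28 counts), cytokines of myeloid cells, were lowest and had their lowest counts in library 1. The 7 immediate early genes, which cell dissociation is known to induce, summed to 5179.9, 3482 and 3465 CPM, also highest in library 1. Fos led this sum. Of the 7 genes, 6 were highest in library 1, as were 39.6% of all tested genes. Egr1 was highest there only narrowly (494 against 493 CPM in library 2), and Jun was highest in library 3. The part of the immediate early genes in the levels of Nfkbia, Ier3 and Icam1 was not tested.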

How the data were processed

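Mouse leptomeninges were dissected, dissociated and sorted, and 2 ng of RNA per sample was amplified over 12 cycles with a template-switching kit; libraries from 10 ng of cDNA took 8 PCR cycles and were read as paired 50 bp ends, per the labels' protocols. The deposited values are raw counts per gene, not normalized. The submitters' processing notes name the build mm10, HTSeq 0.5.3 and DESeq2 1.22.1; the aligner, annotation and strand setting are not given in the sources used here. Columns were matched to libraries by name. The table has 5 counter rows for reads given to no gene (45.6%, 39.1% and 39.6% of libraries 1, 2 and 3), which were left out. Amplified reads are not independent molecules, so intervals cover counting error only.

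Gene counts were normalized with TMM factors (edgeR 4.0.16, R 4.3.3), and filterByExpr with a minimum count of 10 left 14409 genes. With 1 group there is no contrast, so a goodness-of-fit test (edgeR, intercept-only model, trended dispersion) was run on all of them, with Benjamini-Hochberg adjustment; it was tested on simulated data. DESeq2 1.42.0 gave alternative size factors. Gene lengths (union of exons), GC content of the longest transcript and positions came from GENCODE M21 on GRCm38, matched by identifier for 98.9% of gene rows. In 9 members exons overlap another gene, by at most 18.1% of exon bases (Nfkb2), so their counts are uncertain. Levels use log2(CPM + 1) where said. Every member is named; of the other pathway and target lists, the 2 most and the 2 least abundant genes per kilobase and any called gene are. The members, lists and tests were chosen with earlier results of these data known.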

Additional observations from a re-analysis of the deposited data

Results flagged for a closer look

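Reads that the table gave to no single gene form a signal outside the values used here. As means of 3 libraries, 1.35% of reads were shared by overlapping genes and 16.5% aligned to several places. Which members lost reads in this way is not recorded in the table; 9 members have exons that overlap another gene.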

How the results depend on the processing

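The count of 0 members called variable held in each of the 9 other fits run (other size factors, plain totals, other filters, common and tagwise dispersion, and each library left out), and the smallest adjusted p of a member was 0.0936, for Tlr8 with the common dispersion of edgeR. With the tagwise dispersion, which is estimated for each gene from the same libraries, edgeR called 0 of all 14409 genes, with 96 at an unadjusted p under 0.05. That fit could thus not set the members apart from other genes, and its 0 adds nothing to the result. Without library 1, 6 of 39 members had an unadjusted p under 0.05 in edgeR's goodness-of-fit test, beside 867 of all 15460 genes. Without library 2 there was 1 of 35, beside 786 of 14610 genes. Without library 3 there were 2 of 35, beside 860 of 14702 genes. Members past the filter numbered 35 to 39 in the leave-one-out fits.

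The median member level lay 0.33 above that of all genes in log2(CPM + 1), 2.67 above with no filter and 0.59 above with a mean count of at least 10, which admit low genes, and 0.047 above per kilobase of exon; it was 0.32 to 0.40 with any one replicate left out. The median difference of library 1 from the others (0.14) was 0.020 with plain totals, which moved the median of all genes to -0.11, and 0.019 with no filter. It was -0.10, the opposite sign, once GC content and exon length trends were removed, and ranged from 0.018 without replicate 2 to 0.13 without replicate 3; without replicate 1 it does not exist. The ratio of IkB to subunit levels (4.88) was 1.94 in plain CPM, 3.87 with longest transcripts and 0.390 without Nfkbia, and 4.65 to 5.19 with any one replicate left out. Neighbours in the order of levels whose ranges did not overlap numbered 4, and 7 to 9 with any one replicate left out, since ranges over fewer libraries are narrower. Tlr12 had the highest mean of the receptors in each of 5 alternatives chosen after seeing the data (each library left out, longest transcripts, plain CPM). No paired analysis was possible because all libraries share a single group. For Tlr11 and Nod2, which had a count of 0 in at least 1 library, such a count allows up to 3 counts.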

Other observations

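Among the textbook NF-kB targets, promoters were found for 11 of 14, and 6 of those (54.5%) held the kappaB consensus, against 8.23% of all genes. Cxcl1, Cxcl10, Il6, Sod2, Ier3 and Csf1 held it. The genes were listed as known NF-kB targets, so a share above that of all genes was foreseeable and supports nothing.

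Genes below the filter were tested where other filters admitted them. Casp1 had an adjusted p of 0.369 (edgeR goodness of fit) with a mean count of at least 10, and Tlr13 one of 0.613.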
